A study of Homo sapiens with 7 samples.

Results

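The G14 library, labelled for RBFOX2 isoform id.178146, was compared with the control library of the same human embryonic stem cell line. The 2 libraries were taken from the 7 of the series by their labels. Genes were kept where the mean over the 7 libraries was at least 5 TPM (here a gene's part of all reads in its library, not divided by transcript length), which left 7878 of 14294 genes with an Ensembl ID, and RBFOX2 itself was listed with 106 isoforms. Both libraries came from HUES66, an established line, described as piggyBac (a transposon system for inserting genes), given 1 µg/ml doxycycline and sampled at 24 h. The control carries the genotype label WT and G14 the label RBFOX2 isoform KD (knockdown). The series title names Cas13d, an RNA-guided enzyme that cuts RNA, as the agent of knockdown. The other 5 G libraries (G3, G5, G11, G12 and G13) are labelled for other RBFOX2 isoforms and were used only to place G14. No source used here says whether a culture was 1 clone or a pool, or which exons id.178146 holds.

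RBFOX2 is an RNA-binding protein that recognises GCAUG in introns and, with partners in a large assembly (LASR), changes whether a neighbouring exon is kept. Its binding downstream of an exon usually favours inclusion and binding upstream usually favours skipping. The gene makes many isoforms by alternative first exons, alternative splice acceptors and cassette exons. Acceptors that lie 3 nt apart each end in AG, so the spliceosome can join either one, and the longer product carries 1 more codon in the same reading frame.

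Whole complementary DNA molecules of polyadenylated RNA were read by PacBio MAS-Seq, in which molecules are joined into 8-fold arrays and split again after sequencing. The control held 16801842 reads and G14 20946295, with 17848098 to 26678538 in the other 5 libraries. Every listed isoform had at least 1 control read, so an isoform present only in G14 could not be seen. A count of 3 reads, used as the floor, was worth 0.179 TPM in the control and 0.143 TPM in G14. There was 1 library per label and hence no replicate check of any difference below. Intervals are at 95% and cover counting error only. The reads carry no molecular identifiers, so copies of 1 molecule could not be told apart and the intervals may be too narrow. Fisher's exact test on reads compares these libraries, not the conditions.

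The difference turned on a pair of acceptors of 1 RBFOX2 exon. The gene is read from the minus strand (chr22:35738736-36028425, GRCh38). The long form of the exon is chr22:35781600-35781746, and the short form begins 3 nt further in, so that chr22:35781744-35781746 is present in the long form alone. The exon is coding and lies just upstream of, and runs into, the RNA recognition motif. The junction with the preceding exon (chr22:35809780-35810004) is shown for both forms, read 5′ to 3′ on the gene's strand from GENCODE 29 transcripts. Capitals mark the 3 extra bases.

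RBFOX2 long form junction: aatggatctcttacgCAGacagaaggtgga

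RBFOX2 short form junction: aatggatctcttacgacagaaggtggagca

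The whole exon is given because the forms are told apart by its first 3 bases alone, again in capitals.

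RBFOX2 long form exon: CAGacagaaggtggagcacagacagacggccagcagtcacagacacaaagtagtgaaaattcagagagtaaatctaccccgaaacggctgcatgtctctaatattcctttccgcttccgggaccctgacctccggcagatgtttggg

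The RBFOX2 total was about the same in both libraries. It was 107 TPM in the control (1802 reads) and 106 TPM in G14 (2216 reads). G14 was thus at 98.6% of the control (interval 92.7 to 105), and Fisher's exact test, two-sided, gave p = 0.668. The other G libraries held less (G3 42.1 TPM, G5 96.8, G11 82.9, G12 88.5, G13 55.9), all below the control and G14. The total of G14 was above that of the control with median-of-ratios scaling, at 117%. It was at 136% when the hashed isoforms were left out, but that drops long-form reads more than short-form reads. In the control, GENCODE 29 isoforms held 74 of the 524 long-form reads resolved below and 729 of the 1138 short-form reads. The 136% is therefore not a measure of the whole total. The paralogs RBFOX1 and RBFOX3 were near the floor, at 0.48 and 0.24 TPM in the control and 0.43 and 0 in G14.

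Within that total, the long form was low in G14 and the short form high. Most isoform names in the deposited table are hashes, and 67 of the 106 isoforms could be resolved into exons by matching the hash to exon chains, an alternative chosen after seeing the data. They held 92.3% of RBFOX2 reads in the control and 98.5% in G14. In them the long form was at 31.2 TPM in the control and 5.44 in G14. The other libraries held G3 9.24 TPM of it, G5 33.0, G11 25.01, G12 30.2 and G13 40.1. G14 was the lowest of the 7, at 17.5% of the control (14.1 to 21.4; 524 reads against 114). The short form was at 67.7 TPM in the control and 98.7 in G14, or 146% of the control (135 to 157; 1138 reads against 2067). The other libraries ranged from 11.6 TPM in G13 to 62.4 in G5, so G14 was the highest of the 7.

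**Figure D1:**
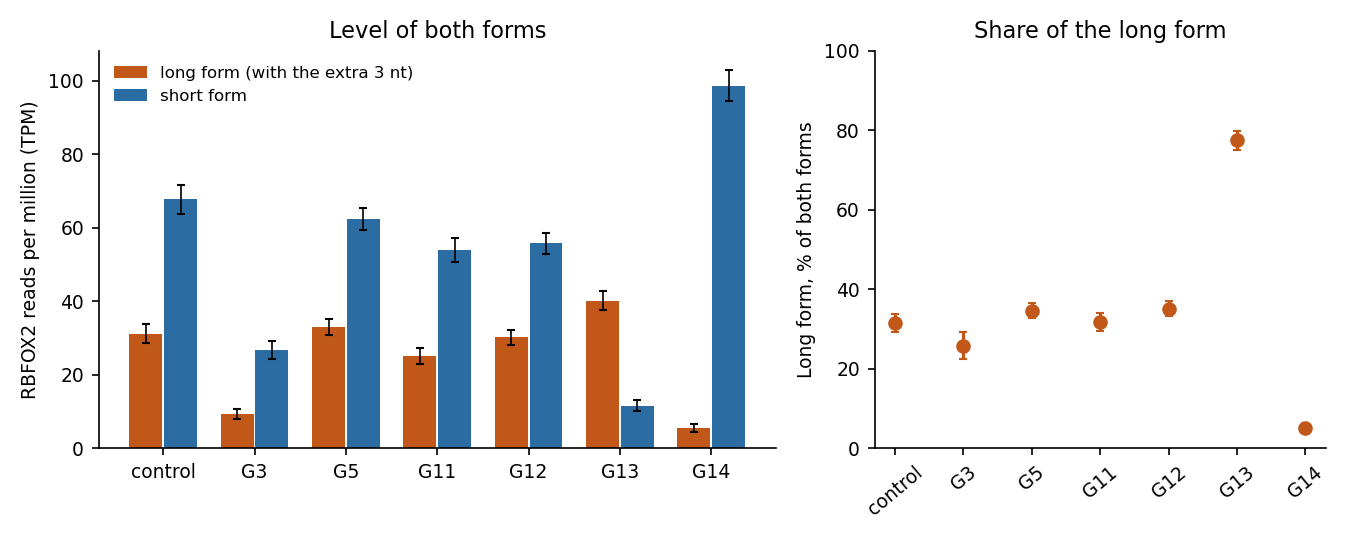
Level of the long and short RBFOX2 forms in each of the 7 libraries (left, TPM, bars from 0 with exact Poisson 95% intervals) and share of the long form among both forms (right, percent, Wilson 95% intervals), over the 67 resolved isoforms. The long form is at 5.44 TPM in G14 against 31.2 in the control, and the short form at 98.7 against 67.7.

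The share of the short form was first tested on the 6 isoforms that GENCODE 29 annotates. It was 90.8% in the control (88.6 to 92.6; 729 of 803 reads) and 99.1% in G14 (98.4 to 99.4; 1475 of 1489 reads). Fisher's exact test gave an adjusted p of 1.58e-21 by the Benjamini-Hochberg method over 3 tests. The same share was 63.1% in G3, 75.8% in G13, 93.2% in G12, 96.9% in G5 and 97.1% in G11. Over all resolved isoforms the short-form share was 68.5% (66.2 to 70.7) for the control and 94.8% (93.8 to 95.6) for G14, with an adjusted p of 1.51e-107 by Fisher's exact test. There the other libraries stood at 22.4% in G13 and between 64.9% and 74.3% in the remaining 4. The annotated set alone therefore shows a smaller gap in percentage points than the resolved set, since it holds few long-form reads in the control.

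The shift was of like direction in each background of other exons. Among isoforms with the proximal first exon, the short form went from 64.7% to 93.8% of reads, and with the distal first exon from 83.7% to 98.1%. A second alternative exon of the gene (chr22:35759888-35760032) also has a short and a long form, whose acceptors lie 12 nt apart. Alongside its short form the share went from 69.7% to 95.8%, and alongside its long form from 66.4% to 92.9%. The long form of the first exon pair was at 14.2% of the control with the short other exon (10.6 to 18.9) and at 23.2% with the long one (16.9 to 31.3).

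Other choices of the gene differed less. The short form of that other exon made up 63.3% of annotated reads of the control and 63.9% of those of G14 (adjusted p = 0.750, Fisher's exact test), and 65.1% and 63.6% of resolved reads (adjusted p = 0.341). The proximal first exon made up 75.5% for the control and 77.3% for G14 (adjusted p = 0.295, Fisher's exact test). In other libraries the same shares lay far from the control, with the proximal first exon at 31.4% in G3 and 96.3% in G5. The 40-nt cassette exon (chr22:35756105-35756144) was kept in 91.2% of resolved control reads and 97.1% of G14 reads (adjusted p = 6.65e-15 by Fisher's exact test). That inclusion was 92.4% in G3 and 95.8% to 97.8% in the other 4 libraries, so here it is the control that was lowest.

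The 5 isoforms with at least 5% of the RBFOX2 total on average all differed in share between the libraries. The most abundant was ENST00000416721.6, which begins at the proximal first exon and carries both short forms. It had 472 reads in the control and 947 in G14, or 28.1 and 45.2 TPM, which is 161% of the control (143.96 to 180). Its share of RBFOX2 went from 26.2% to 42.7% (adjusted p = 1.14e-27, Fisher's exact test over 5 isoforms). Its long-form counterpart, a hashed isoform here called hashed isoform 1, had 260 reads in the control and 49 in G14. That was 15.1% of the control (10.9 to 20.6), and its share went from 14.4% to 2.21% (adjusted p = 5.11e-49, Fisher's exact test). These isoforms share the proximal first exon and the short form of the other exon, so their reads moved in opposite directions in a single background.

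The second such pair carries the long form of the other exon. ENST00000449924.6, with the short form of the first exon pair, was at 13.99 TPM in the control and 24.7 in G14, or 176% (151 to 207), with a share of 13.04% and 23.3% (adjusted p = 8.80e-17 by Fisher's exact test). Hashed isoform 2, with the long form, was at 7.14 and 1.91 TPM, or 26.7% (18.2 to 38.5), with a share of 6.66% and 1.81% (adjusted p = 4.72e-15 by Fisher's exact test). Hashed isoform 3 begins at the distal first exon and holds both short forms. It was at 9.28 TPM in the control and 12.4 in G14, or 133.2% (109 to 164; adjusted p for its share 0.00175, Fisher's exact test).

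The remaining annotated carriers of the long form were also low. ENST00000438146.7, which begins at the distal first exon, had 38 reads in the control and 9 in G14, or 19.0% of the control (8.08 to 39.97). ENST00000405409.6, which lacks the 40-nt exon, had 27 and 5 reads, or 14.9% (4.47 to 39.1). ENST00000397303.6, whose first exon lies elsewhere, had 9 reads in the control and 0 in G14, under the floor of 3 reads. The annotated short-form isoform without the 40-nt exon, ENST00000414461.6, was low too, with 22 reads in the control and 11 in G14, or 40.1% (17.6 to 86.3). ENST00000695854.1, not in GENCODE 29 and not resolved here, was named after its values were seen. It had 85 reads in the control and 17 in G14, or 16.0% (8.93 to 27.2).

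Among resolved isoforms with at least 10 control reads, 5 of 5 long-form isoforms had an interval wholly below 100% of the control, and they lay between 14.9% and 26.7%. Of the 9 short-form isoforms, 4 had an interval wholly above 100% and 2 wholly below, with a range of 40.1% to 176%. Their median was 64.2%, and 5 of the 9 were below the control, so the higher sum of the short form came from a part of its isoforms. The 2 with an interval wholly below 100% were ENST00000414461.6 and hashed isoform 5, at 57.5% (35.6 to 92.0), and both lack the 40-nt exon. Including isoforms of few reads, 22 of 31 long-form isoforms had no read in G14, against 13 of 35 short-form isoforms. Zeros were common in the whole table, where 158666 of 386982 listed isoforms had reads in G14. The isoforms were listed on control reads, so zeros in G14 could follow in part from how the table was made.

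**Figure D2:**
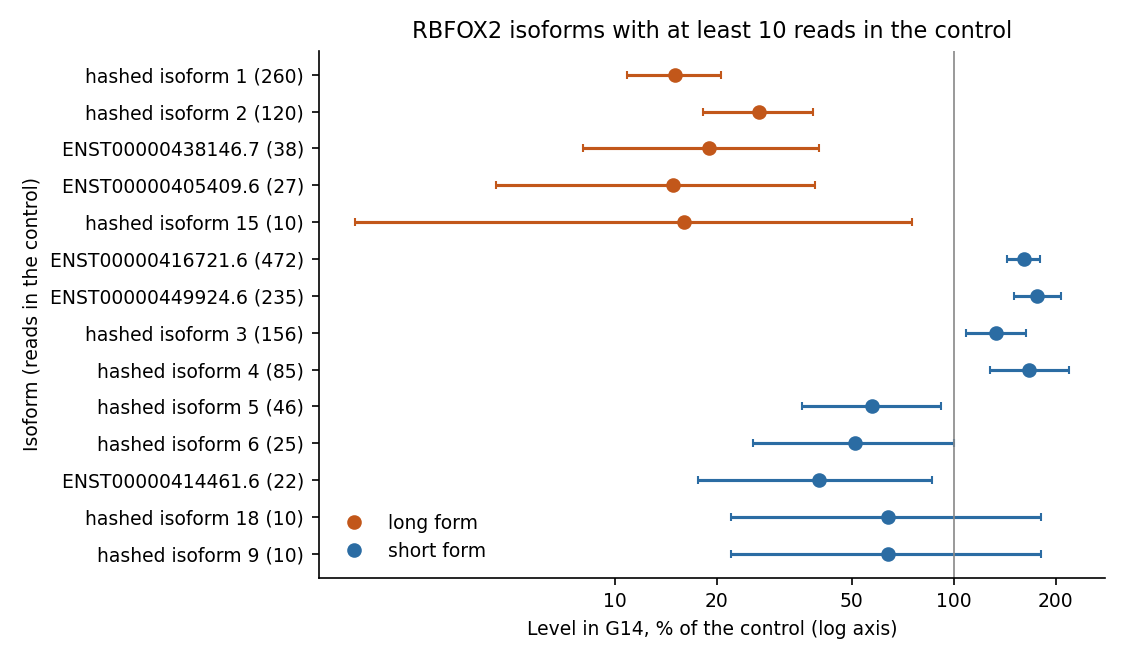
Level in G14 of each resolved RBFOX2 isoform with at least 10 control reads, as percent of the control on a log axis with exact 95% intervals; the number of control reads is beside each name. All 5 long-form isoforms lie between 14.9% and 26.7%, and the 9 short-form isoforms between 40.1% and 176%.

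The same kind of acceptor pair was measured in all genes to set the background for RBFOX2. Pairs 3 nt apart with enough reads numbered 231 in 219 genes, and 1 of them (0.433%) differed by at least 20 percentage points between G14 and the control. That one was RBFOX2, at 33.8% long form in the control (31.4 to 36.3; 474 of its reads against 929 short) and 5.74% in G14 (4.77 to 6.89; 106 against 1741). The other 5 libraries lay between 34.8% and 78.3%. This count took fewer RBFOX2 reads than the resolved isoforms above, 380 against 641 in G3. Over those isoforms the long form was 25.7% in G3, 31.5% in the control and 5.23% in G14. G3 thus lay above the control in one count and below it in the other, and G14 was lowest in both. A difference of 10 points or more was met by 4 pairs (1.73%). The other 3 were RARG, a retinoic acid receptor, at 80.4% and 66.7%, MASTL, a mitotic kinase, at 45.3% and 34.6%, and DCAF4, a ubiquitin ligase adaptor, at 47.97% and 37.3%. RARG had 75 reads in G14. Its share was between 79.5% and 85.0% in G3, G5, G11 and G12, and 62.1% in G13, which had 29 reads.

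Cassette exons are the events that RBFOX proteins are best known to regulate. Of 3184 cassette exons in 1849 genes, 13 (0.408%) differed by at least 20 points, 10 higher in G14 and 3 lower. Against the same control, the other libraries had G3 3, G5 8, G11 6, G12 6 and G13 12. The exons named next were chosen after their values were seen. A 119-nt exon of NOP14, a factor of small ribosomal subunit assembly, went from 26.9% (17.7 to 38.5) to 66.2% (54.0 to 76.5), with the other libraries from 12.8% to 75.5% (G13, the highest, had 49 reads). An exon of PTRH2, a mitochondrial peptidyl-tRNA hydrolase, went from 15.8% to 43.1% (other libraries 22.9% to 40.2%). The long exon of SGO1, the shugoshin that guards centromeric cohesion, went from 46.0% to 12.4% (other libraries 11.9% to 68.9%). NOP14 and SGO1 in G14 lay within the spread of the other libraries, and PTRH2 lay just above it.

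Some exons of genes studied before as RBFOX splicing targets were then read. They were chosen with results of these data known, and the target exons that rose, fell or stayed alike were not tallied. Those named thus give no common direction for the targets. In EPB41, which encodes the membrane skeleton protein 4.1R, a 63-nt exon (chr1:29060422-29060484) was kept in 79.5% of control reads (69.6 to 86.8) and 55.6% of G14 reads (42.4 to 68.0). G3, G5, G11 and G12 lay between 61.9% and 68.4%, and G13 was at 53.2% of 47 reads, so all 6 G libraries were below the control and G13 and G14 were the lowest. A 42-nt exon of EPB41 was kept in 29.8% (21.0 to 40.3) and 11.1% (5.19 to 22.2), with G3, G5, G11 and G12 from 17.9% to 28.0% and G13 at 10.6% of 47 reads. EPB41 had 54 informative G14 reads at each of these exons. In ECT2, a cytokinesis exchange factor, a 93-nt exon went from 87.6% (85.2 to 89.6) to 77.4% (75.4 to 79.3), with the others from 59.6% to 82.9%. A 79-nt exon of TPM1, a tropomyosin gene, went from 8.41% (7.61 to 9.29) to 3.20% (2.83 to 3.62), with the others from 3.37% to 6.10%.

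Isoform usage as a whole was compared by the total variation distance of isoform shares, which is 0 where 2 libraries use isoforms alike and 1 where they share none. Over 5220 genes with at least 20 TPM on average, the median distance of G14 to the control was 0.0559, against 0.0452 to 0.0536 for the other 5 libraries. RBFOX2 had a distance of 0.348, the 56th largest, at percentile 98.9. It was 0.468 in G3 and 0.477 in G13. The largest distances of G14 were in EPRS1 (0.667), a fused aminoacyl-tRNA synthetase, the kinase AKT2 (0.586), the pseudouridine synthase DKC1 (0.583), the sulfatase ARSK (0.583) and FEZ2 (0.544). AKT2 had 80 reads in G14. Among the RBFOX targets, EPB41 was at 0.353, TPM1 at 0.171 and TPM3 at 0.015.

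In EPRS1 the share of a longer product was higher and that of a shorter one lower. ENST00000366923.8 held 21.5% of EPRS1 reads in the control and 88.2% in G14, and a shorter hashed isoform went from 62.5% to 9.63%. That shorter isoform held 40.2% in G3 and 15.4% to 22.5% in the other 4 libraries. In DKC1, ENST00000696577.1 went from 71.9% to 21.3% and ENST00000369550.10 from 15.2% to 65.4%. In ARSK, ENST00000380009.9 went from 17.5% to 75.2%, and in FEZ2, ENST00000405912.8 went from 24.6% to 66.8%. In DKC1, EPRS1 and ARSK the share moved the same way in each of the other 5 libraries, with G14 the farthest from the control. The share in FEZ2 also rose in each of them, with G5 at 66.9% and G14 at 66.8%.

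Reads that end inside the gene, over 5000 bases before its 3′ end, were counted after these genes had been seen. Among 481 protein-coding genes where such reads made up between 5% and 95% in either library, the share was lower in G14 by 20 points in 56 (11.6%) and higher in 1 (0.208%). The median difference was -4.15 points. EPRS1 went from 77.6% to 11.8%, the telomere protein gene TERF1 from 85.7% to 41.4%, CALD1 (caldesmon) from 54.1% to 10.4% and PARP1, a DNA damage sensor, from 41.7% to 5.31%. The other libraries had G3 19 such genes lower, G5 35, G11 42, G12 23 and G13 43. Against the median of those 5 libraries only 2 genes (0.416%) were lower in G14 by as much, so most of the difference set the control apart from all G libraries.

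**Figure D3:**
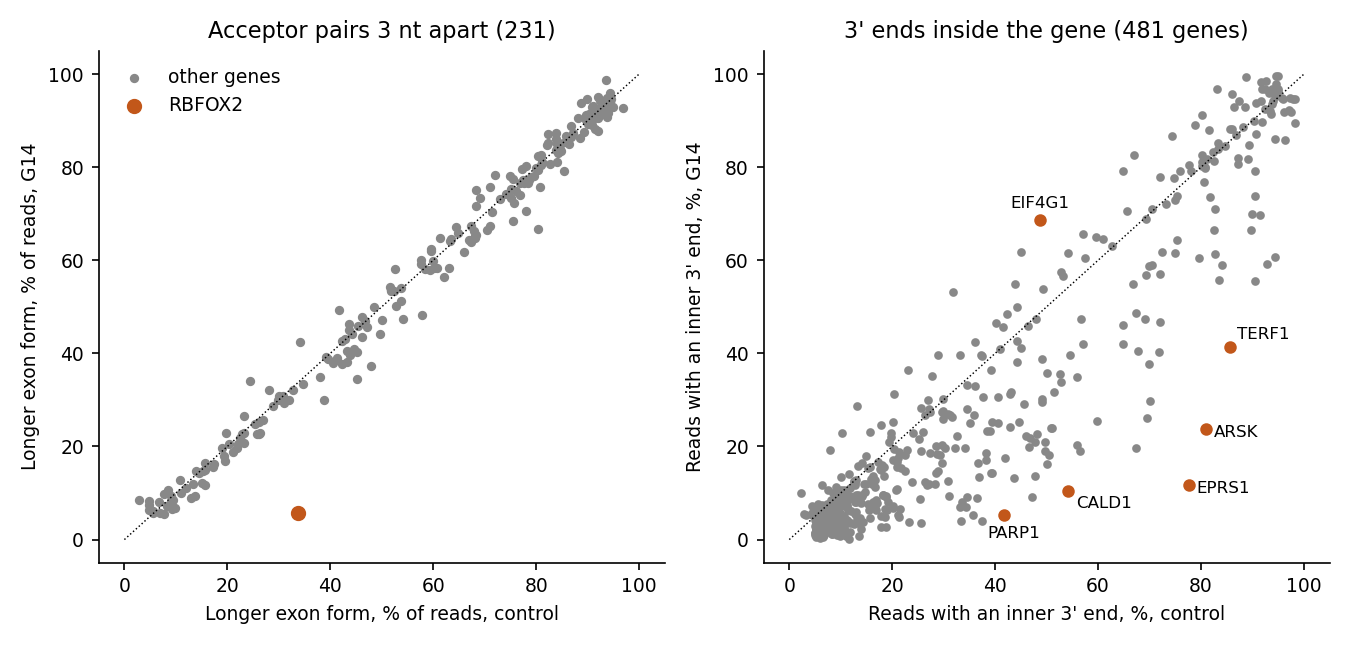
Left, share of reads with the longer exon form at each of 231 acceptor pairs 3 nt apart, control on the horizontal and G14 on the vertical axis (percent). Right, share of reads with a 3′ end inside the gene for 481 genes on the same axes; dotted lines mark equality. RBFOX2 lies at 33.8% and 5.74% on the left, and EPRS1 at 77.6% and 11.8% on the right.

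Relative to the control, many more genes were low in G14 than high. On the scale of log2(TPM + 0.5), which understates the ratio of weakly expressed genes, 313 genes (3.97%) were at least 2-fold higher in G14 and 1487 (18.9%) at least 2-fold lower. This split moved with the scaling. With median-of-ratios scaling, which raised all ratios by a log2 of 0.25, it was 744 higher and 1064 lower, and after subtracting a surface of transcript length and GC content it was 374 and 536. The median log2 ratio of all genes was -0.10, and 90% of genes lay between -1.77 and 0.94. Against the median of the other 5 G libraries, 39 genes (0.495%) were higher and 116 (1.47%) lower, and the SD of the log2 ratio was 0.40 in place of 0.85. Against the same control, 1800 genes (22.8%) were 2-fold away in G14, the most of the 6 G libraries (G3 554, G5 841, G11 873, G12 736, G13 1236).

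Genes low in G14 had short or GC-rich transcripts. Their median length was 1513 nt and GC content 57.6%, against 3090 nt and 42.3% for genes that were high and 2604 nt and 47.9% for all. With genes in 5 equal bins, the shortest had a median log2 ratio of -1.01, with 50.7% of them 2-fold lower. In the bin of highest GC content it was -0.90, with 45.7% lower. Length and GC content together took 39.0% of the variance of the ratios, and 28.4% against the other 5 libraries, where the same bins had medians of -0.36 and -0.41. Whether library preparation or the cells had a part in this was not tested, and it bears on every gene and list below.

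**Figure D4:**
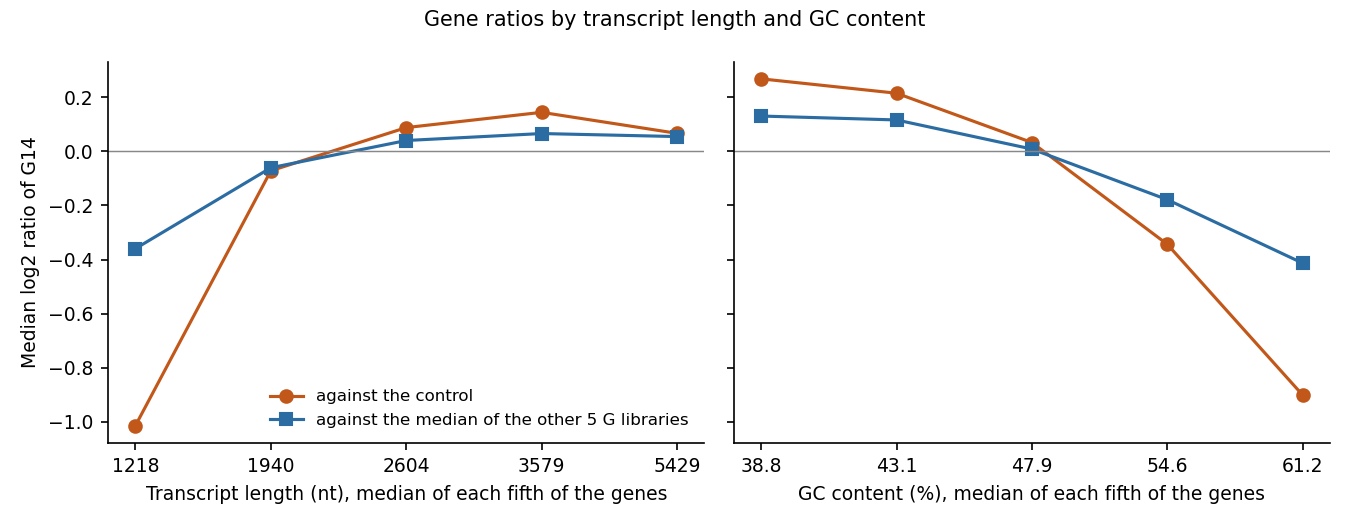
Median log2 ratio of G14 in 5 equal groups of genes by transcript length (left, nt) and by GC content (right, percent), against the control and against the median of the other 5 G libraries. The shortest and the most GC-rich bins have medians of -1.01 and -0.90 against the control, and -0.36 and -0.41 against the other libraries.

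The genes farthest above the control included some of chromosome structure and transcription. TOPORS, a topoisomerase-binding ubiquitin and SUMO ligase, was at 2.68 TPM in the control and 35.95 in G14. The others were G3 11.7 TPM, G5 20.4, G11 23.0, G12 21.7 and G13 28.1, so the control was lowest and G14 highest. G14 was 13.4-fold higher than the control (9.93 to 18.6; 45 reads against 753). TOP2A, the topoisomerase of dividing cells, was at 4.36 and 39.0 TPM, or 8.97-fold higher (7.05 to 11.6), with the other libraries from 5.60 to 33.2. SMC3, a cohesin subunit, was at 6.67 and 41.8 TPM, or 6.27-fold higher (5.14 to 7.70), and G13 was as high at 42.5.

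Transcription and splicing factors made up several of the rest. CTR9, a subunit of the PAF1 elongation complex, was at 1.67 TPM in the control and 17.9 in G14, and IWS1, a partner of the elongation factor SPT6, at 15.4 and 72.3. CWC27, a spliceosomal cyclophilin, was at 19.1 and 106 TPM. KNOP1, a nucleolar protein, was at 29.7 and 166 TPM, LSG1, a GTPase of 60S subunit maturation, at 4.35 and 25.7, and SEC63, of the endoplasmic reticulum translocon, at 15.6 and 79.5. For each of these 6 genes the control was the lowest and G14 the highest of the 7 libraries.

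The genes farthest below the control had the reverse composition, being mostly GC-rich. FLNA, which encodes the actin cross-linker filamin A, was at 24.0 TPM in the control and 0.05 in G14, where it had 1 read. The others were G3 56.8 TPM, G5 17.2, G11 0.20, G12 0.30 and G13 0.04, so 4 of the 6 G libraries were near 0. COL18A1, a basement membrane collagen, was at 22.4 and 0.19 TPM, and PRRC2A at 18.5 and 0.30. The ubiquitin ligase RNF44 was at 36.6 and 0.74 TPM, the splicing co-regulator RAVER1 at 79.2 and 4.99, the neurotrophin receptor NGFR at 85.2 and 5.89, and AKT2 at 49.9 and 3.85. TLCD3B, a ceramide synthase-like gene, was at 18.2 and 1.10, and TMEM184B at 25.9 and 2.07. In each of these 9 genes the TPM of G13 was lower than that of G14, and G3 or the control was the highest. FLNA had 1 read in both G13 and G14, so its order there reflects library depth alone. COL18A1 had 1 read and PRRC2A 0 in G13, under the floor of 3 reads.

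RABGGTB was the exception among the 10. It encodes the beta subunit of the prenyltransferase that attaches lipids to Rab proteins, and its transcript has a low GC content of 38.2%. It was at 25.4 TPM in the control and 1.64 in G14, or 6.40% of the control (4.38 to 9.09; 426 reads against 34). The others were G3 1.76 TPM, G5 6.58, G11 11.9, G12 11.4 and G13 14.8. G3 and G14 were thus alike and lowest.

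Few genes set G14 apart from all 6 other libraries. Above their range and 2-fold from their median were 6 genes (0.0762%), and below it 84 (1.07%). The farthest above were STT3B, FAF1, RMI2, LAPTM4B and CPE. STT3B, a catalytic subunit of oligosaccharyltransferase, was at 19.9 TPM in G14 and 8.03 in the control, with G3 close at 17.9. FAF1, a ubiquitin-binding adaptor, was at 40.01 TPM against 15.4 to 20.7 in the other 6. RMI2, a partner of the BLM helicase, was at 833 TPM against 346 to 490. RMI2 was 2.14-fold over the control (2.08 to 2.20).

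Below the range, RABGGTB was farthest. FOXH1, a cofactor of Nodal signalling through SMAD proteins, was at 8.35 TPM in G14 and 53.8 in the control, with G13 close at 8.64. CIR1, a corepressor, was at 3.53 and 15.4 TPM, SF3A2, a U2 snRNP subunit, at 44.2 and 205, and TSC22D4 at 19.7 and 70.6. For SF3A2 and TSC22D4 as well, G13 was within 3 TPM of G14.

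Gene lists were read against these backgrounds of 3.97% higher and 18.9% lower and the overall median of -0.10. They were chosen with earlier results of these data known. RNA binding partners of RBFOX2 in LASR moved little as a list. Of 7 compared, 0 were higher and 1 lower by 2-fold, with a median of 0.10. ILF2 was at 2163 TPM in the control and 4201 in G14, HNRNPM at 915 and 1140 and DDX5 at 774 and 581. Of 12 tissue splicing regulators, 0 were higher and 1 lower. The epithelial regulators ESRP1 and ESRP2 stood at 153 and 250 TPM and at 15.7 and 6.60 TPM, and the polypyrimidine tract-binding PTBP1 at 185 and 104. Among genes studied as RBFOX splicing targets, 15 of 24 were compared, 0 higher and 1 lower, with a median of 0.29. DNM1L, the mitochondrial fission dynamin, was at 89.4 and 177 TPM and CLSTN1, a calsyntenin, at 18.8 and 3.68.

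General splicing factors divided by kind. Of 47 core spliceosome proteins, 2 were higher and 16 lower, with a median of -0.49. SF3B2 of the U2 snRNP was at 192 TPM in the control and 740 in G14, above the 429 to 602 of the other 5, and LSM2 of the U6 ring was at 42.6 and 7.60. The SR proteins, which promote exon use, had 0 of 10 higher and 1 lower. That was SRSF7, at 1066 and 320 TPM, below the other libraries (456 to 917). HNRNP proteins had 2 of 18 higher and 0 lower, with HNRNPR at 280 and 635 TPM and HNRNPK at 3307 and 5717.

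Ribosomal protein genes were the list with the most low members. Of 71 cytosolic ribosomal proteins compared, 0 were higher and 52 lower, with a median of -1.35, and 54 lay below the range of the other 6 libraries, as did 21.1% of all genes. RPL3 was at 5156 TPM in the control and 3048 in G14, RPS6 at 1662 and 417, RPL8 at 988 and 243 and RPL36 at 29.6 and 4.44. RPL4 was the one member above the control, at 38.01 and 42.1 TPM. The transcripts of this list are short, with a median of 955 nt, and the median was -0.60 after subtracting the length and GC surface and -0.45 against the other 5 libraries. Reads of these genes may be shared with processed pseudogenes.

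Mitochondrial lists were low by count too. Mitochondrial ribosomal proteins had 1 of 74 higher and 37 lower (median -1.02), and respiratory chain subunits 0 of 71 higher and 34 lower (median -0.94). MRPS6 was at 93.03 and 15.8 TPM and ATP5F1D, of the ATP synthase, at 35.5 and 4.63. MRPL49 was at 373 and 787 TPM and NDUFA5, of complex I, at 670 and 1193, so members stood on both sides. The median lengths were 1448 and 1050 nt, and the medians after subtracting the surface were -0.48 and -0.16.

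Other housekeeping groups were mixed. Of 34 proteasome subunits, 0 were higher and 10 lower, with PSMB5, a catalytic subunit, at 1289 and 312 TPM. Translation factors had 0 of 53 higher and 14 lower. EEF1D was at 233 and 42.6 TPM, EIF5A at 4771 and 2241 and EIF4B at 60.2 and 110. Glycolytic enzymes had 0 of 17 higher and 2 lower, which were GAPDH at 3438 and 966 TPM and TPI1 at 5846 and 2416, while ENO1 was at 3821 and 5642. The 8 chaperonin subunits, which fold actin and tubulin, were all above the control and 0 passed 2-fold, with a median of 0.51 and CCT6A at 299 and 593 TPM. Actin, tubulin and tropomyosin genes had 0 of 23 higher and 10 lower, with ACTB at 17873 and 12460 TPM, PFN1 at 4290 and 1261 and TPM3 at 1816 and 3281. After subtracting the length and GC surface 4 of these 23 were lower, and their median went from -0.76 to -0.32.

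Cell division genes were the list with the most high members by share among those of 10 or more. Of 38 mitosis and chromosome segregation genes, 8 were higher and 1 lower, with a median of 0.45, and 19 lay above the range of the other 6 libraries, as did 24.1% of all genes. Besides TOP2A and SMC3, NUSAP1, a spindle protein, was at 478 TPM in the control and 1411 in G14 (other libraries 596 to 1091). PLK1, the mitotic kinase, was at 666 and 1310 TPM, and AURKB, the kinase of the chromosomal passenger complex, at 163 and 54.6. The transcripts of this list are long (median 3533 nt) and low in GC content (42.8%), and the median was 0.34 after subtracting the surface and 0.23 against the other 5 libraries. DNA replication proteins had 3 of 35 higher and 3 lower, with the helicase subunits MCM6 at 128 and 308 TPM and MCM3 at 599 and 1310, and the licensing factor CDT1 at 25.01 and 5.83.

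**Figure D5:**
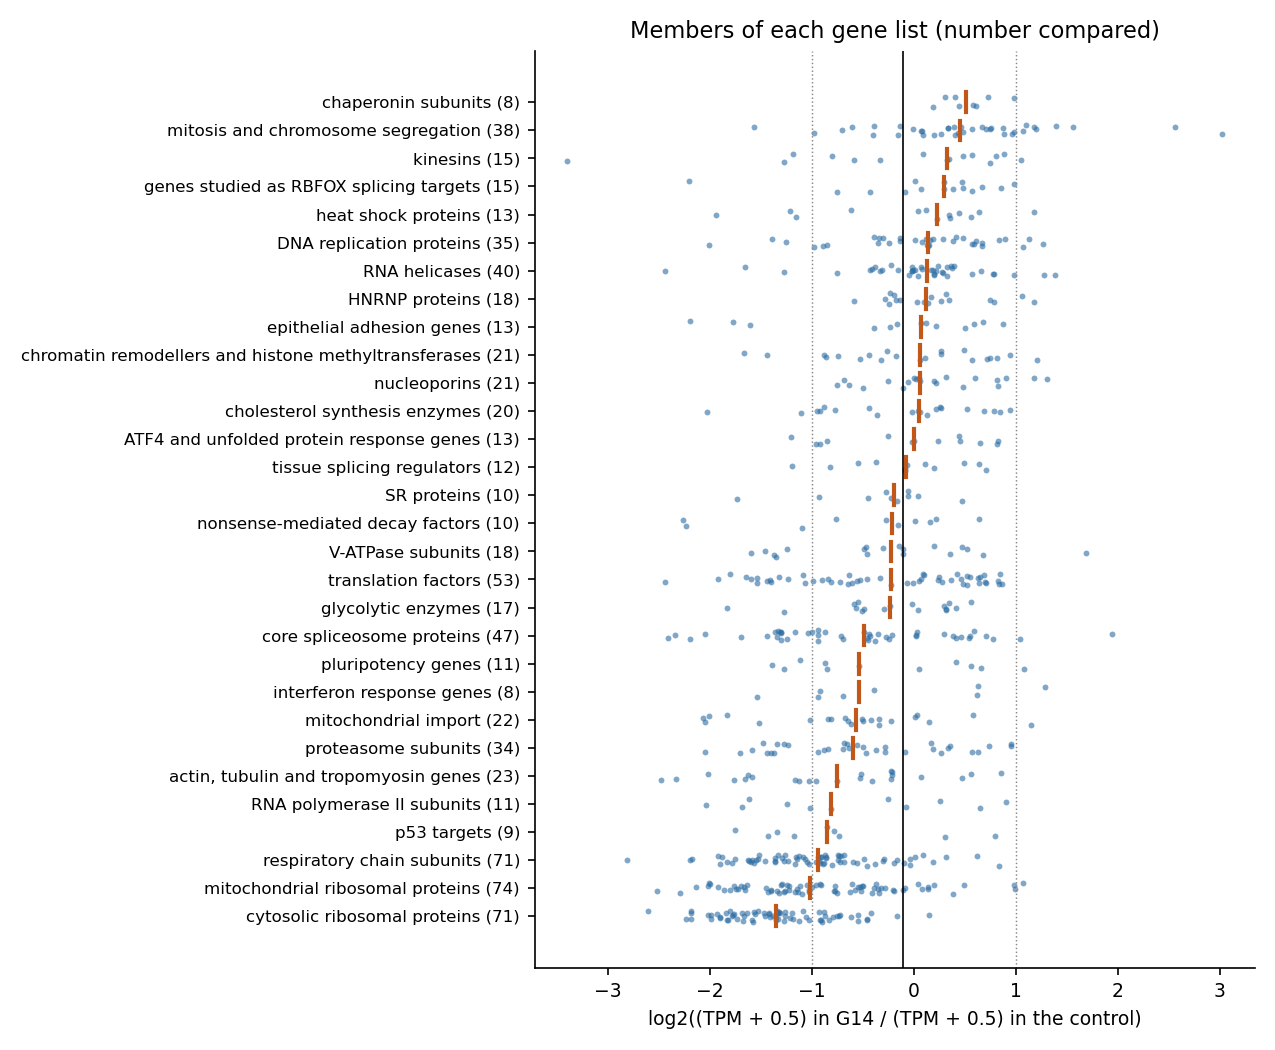
Log2 ratio of G14 to the control, as log2(TPM + 0.5), for each compared member (points) of every list with at least 8 members compared, with the list median (thick bar), the median of all genes (solid line, -0.10) and 2-fold limits (dotted). Cytosolic ribosomal proteins have a median of -1.35 and chaperonin subunits, at the other end, of 0.51.

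The labelled cell type was checked by markers. Of 15 pluripotency genes 11 were compared, 1 higher and 3 lower, with a median of -0.54. That median was -0.21 after subtracting the length and GC surface, with 1 gene lower. Against the other 5 libraries it was -0.24, with 0 lower. POU5F1 was at 916 TPM in the control and 377 in G14, below the other libraries (505 to 588), and NANOG at 10.1 and 3.51. L1TD1 was at 18.2 and 39.1 TPM and DPPA4 at 745 and 995. The direction of TERF1, at 454 and 208 TPM, was turned when the hashed isoforms were left out. Markers of other cell types differed by list. Those of mesoderm and endoderm summed to 1.49 TPM in the control and 0.77 in G14, and those of trophoblast to 1.91 and 1.34. Of 10 neural markers 2 were compared, OTX2 at 110 and 130 TPM and TUBB3, which was 2-fold lower, at 80.8 and 38.8, and PAX6 and SOX1 had no value. The neural list summed to 198 TPM in the control and 173 in G14. Of 8 fibroblast markers 3 were compared and 2 were lower, with a median of -1.20, and DCN and LUM had no value. THY1, a surface protein also known on pluripotent stem cells, was at 918 and 817 TPM, COL1A1 at 16.4 and 3.20 and COL1A2 at 11.3 and 4.64. The fibroblast list summed to 946 and 825 TPM. The part of these cells in the results was not tested. In a bulk sample, fewer cells of a type and less RNA per cell cannot be told apart.

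Stress genes differed by list. The median was -0.85 for p53 targets and -0.54 for interferon response genes. It was 0.0042 for genes of the ATF4 and unfolded protein response. Of 9 p53 targets, 0 were higher and 4 lower by 2-fold, and 7 lay below the control. The median of the p53 list was -0.52 after subtracting the length and GC surface and -0.12 against the other 5 libraries. CDKN1A, the cell cycle inhibitor, was at 54.0 and 66.8 TPM and the apoptosis effector BAX at 248 and 72.9. Of 13 genes of the ATF4 and unfolded protein response, 0 were higher and 1 lower, which was SDF2L1, at 66.5 and 28.5 TPM, a direction that turned after subtracting the length and GC surface. The chaperone HSPA5 was at 3539 and 4796 TPM. Of 8 interferon response genes, 1 was higher and 1 lower, IFIT1 at 17.4 and 43.1 TPM and IFITM3 at 31.4 and 10.5. The sign of this list's median turned, to 0.58 after subtracting the length and GC surface and to 0.21 against the other 5 libraries.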

How the data were processed

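Reads were assigned to isoforms by the submitters, whose processing notes name minimap2 2.17 and GRCh38. The deposited table gives a read count and a TPM per isoform and library, per the file headers. The deposited TPM was the count over all reads of its library and took no account of transcript length. Empty cells were read as 0, and isoforms were summed by Ensembl gene ID. Members and lists were chosen with earlier results of these data known. Ratios are of TPM + 0.5. The 40 gene lists carry no test. Hashed isoform names were resolved by matching the hash of their splice sites to GENCODE 29 chains on GRCh38, allowing 1 site to differ by up to 400 bases. Genes named are RBFOX2 isoforms of at least 5% and annotated carriers of the exon, the 10 largest rises and falls and the 5 farthest outside the other libraries' range on each side (mean of at least 10 TPM), the 5 largest usage distances, and per list the highest, most raised and most lowered members; some of these are not reported here. Computations (Python 3.11.15, pandas 2.3.3, numpy 2.4.6, scipy 1.17.1) were tested on simulated data.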

Additional observations from a re-analysis of the deposited data

How the results depend on the processing

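No paired analysis was possible because every label carries the same replicate number and each group has 1 library. The short-form share kept its direction and its side of the threshold in all 6 alternatives tried. The RBFOX2 total was 98.6% of the control, but 117% (p = 4.74e-07) with median-of-ratios scaling and 136% (p = 1.93e-13) with reference IDs only, by Fisher's exact test. It was 128% of the median of the other 5 G libraries. For that value Fisher's exact test (p = 2.2e-14) compared G14 with G11 alone, the library at that median. The 313 genes higher became 1213 at 1.5-fold, 14 at 4-fold, 744 with median-of-ratios scaling and 39 against the other 5, and, as references added after seeing the data, 204 against G3, 29 against G5, 47 against G11 and 52 against G12. The 1487 genes lower became 2436 at 1.5-fold, 238 at 4-fold, 2543 without a filter, 860 at a mean of 20 TPM, 116 against the other 5 and 536 after subtracting the length and GC surface. They were 1205 against G3, 530 against G5, 95 against G11, 143 against G12 and 84 against G13. The split turned against G13, where 238 genes were higher. The median log2 ratio of -0.10 became -0.23 without a filter, 0.0035 at 20 TPM, 0.14 with median-of-ratios scaling, 0.046 after subtracting the surface, 0.10 against G12 and 0.21 against G13. At 1.5-fold, 174 genes lay above and 870 below the range of the other libraries. The median usage distance was 0.0241 over isoforms of at least 1 TPM and 0.0090 over reference IDs, where that of RBFOX2 was 0.176. Of the named genes at least 2-fold from the control, TERF1 (log2 0.96, reference IDs only) and SDF2L1 (0.47, surface subtracted) changed sign. PRRC2A (0.13) and L1TD1 (-0.012) did so against the other 5. Smaller ratios were not screened for a change of sign. Of 36 list medians, 29 kept their sign with median-of-ratios scaling, 29 against the other 5 and 31 after subtracting the surface. The cause was not tested. Of the other values for single genes, isoforms and lists, 2198 kept within their limits and 285 moved. Some of those kept could not have moved, since a filter on the mean does not alter a gene's ratio. Such single-gene values numbered 218 without a filter, 210 at a mean of 10 TPM and 187 at 20 TPM. Isoforms under 10 control reads were described mainly by counts.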

Other observations

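Groups not described above were read in the same way, against the same shares of all genes. Zinc finger ZNF genes, mostly repressors of transcription, had 12 of 239 higher and 19 lower, with a median log2 ratio of 0.23. Solute carriers, which move small molecules across membranes, had 3 of 120 higher and 15 lower, with a median of -0.24. Nucleoporins had 2 of 21 higher and 0 lower, with NUP93 at 337 TPM in the control and 836 in G14 and NUP107 at 200 and 453. RNA helicases had 2 of 40 higher and 3 lower, with DDX27 at 49.0 and 129 TPM. RNA polymerase II subunits had 0 of 11 higher and 5 lower, with POLR2I at 24.2 and 5.50 TPM and POLR2B at 47.6 and 89.5. After subtracting the length and GC surface 0 of these 11 were lower, and their median went from -0.81 to -0.19. V-ATPase subunits, which acidify lysosomes, had 1 of 18 higher and 5 lower, with ATP6V1B2 at 282 and 910 TPM and ATP6V0C at 486 and 176. Kinesins had 1 of 15 higher and 3 lower, with KIF18A at 43.2 and 90.03 TPM and its paralog KIF18B at 17.4 and 1.20. Cholesterol synthesis enzymes had 0 of 20 higher and 2 lower, with FDPS at 1205 and 653 TPM and SC5D at 162 and 310. Epithelial adhesion genes had 0 of 13 higher and 3 lower, with the claudin CLDN6 at 1796 and 526 TPM, below the other libraries (815 to 1612), and EPCAM at 793 and 673.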
